A study of Mus musculus with 6 samples.

Results

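Myeloid C-type lectin receptors are described here as 10 genes named by symbol, Clec4a1, Clec4a2, Clec4a3, Clec4d, Clec4e, Clec4n, Clec5a, Clec7a, Clec12a and Cd209a, out of 57132 genes in the count table. All 10 were found by their Ensembl identifier in GENCODE mouse release 39; the rule goes by name, and the set was drawn up with earlier results of these data known. Their mRNA was sequenced in cultures labelled as bone marrow-derived dendritic cells (BMDC), taken on day 5 from femoral and tibial marrow of female C57BL/6 mice aged 6 to 8 weeks. Cultures had 100 nM queuine (100Q, 3 libraries) or no added queuine (0Q, 3 libraries), and the medium of both groups held GM-CSF at 15 ng/mL and serum that had been dialyzed. Queuine is the base that cells insert into 4 tRNAs, those of Tyr, His, Asn and Asp, to make queuosine, and the study asked how it affects the transcriptome. The wells were a triplicate, and the labels do not say whether they came from separate animals. The p-values therefore reflect culture-to-culture spread, part of which may be technical. Whether it includes spread between animals is not known.

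C-type lectin receptors are membrane proteins of phagocytes and dendritic cells that bind sugars and lipids on fungi, mycobacteria and damaged cells. The activating ones signal through immunoreceptor tyrosine-based activation motifs, carried either by a partner chain (FcR gamma, encoded by Fcer1g, or DAP12, encoded by Tyrobp) or by their own tail, to the kinase Syk and the Card9 adaptor complex. The inhibitory ones carry a tail motif that recruits phosphatases such as SHP-1, encoded by Ptpn6. GM-CSF marrow cultures are a common source of cells that bear these receptors.

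The first 50 codons of 5 receptors are shown because they hold the cytoplasmic tail, where the receptors differ in how they signal, and because they show the codons read by queuosine tRNAs. They are spliced coding sequence of the canonical GENCODE transcript on GRCm39, 5′ to 3′ on the strand of the gene. Capitals mark the codons read by queuosine tRNAs, which are NAT or NAC (Asn, Asp, His and Tyr).
Clec4n: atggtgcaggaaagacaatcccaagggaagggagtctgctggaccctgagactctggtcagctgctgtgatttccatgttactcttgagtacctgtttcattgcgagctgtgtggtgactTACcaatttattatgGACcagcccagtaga
Clec7a: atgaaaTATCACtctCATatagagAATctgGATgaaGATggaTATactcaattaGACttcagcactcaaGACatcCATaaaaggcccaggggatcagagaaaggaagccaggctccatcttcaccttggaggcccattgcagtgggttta
Clec4a2: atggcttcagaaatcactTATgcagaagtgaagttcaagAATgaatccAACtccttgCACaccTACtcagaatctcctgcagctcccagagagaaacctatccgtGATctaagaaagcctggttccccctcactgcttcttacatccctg
Clec12a: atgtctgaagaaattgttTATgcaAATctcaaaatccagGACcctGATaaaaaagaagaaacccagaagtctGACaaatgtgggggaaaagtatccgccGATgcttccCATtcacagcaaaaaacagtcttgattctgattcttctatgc
Clec4a3: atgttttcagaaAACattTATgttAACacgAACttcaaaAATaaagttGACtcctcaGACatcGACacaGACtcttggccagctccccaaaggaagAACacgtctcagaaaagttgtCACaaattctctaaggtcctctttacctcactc
Clec4n, which encodes Dectin-2, had 2 such codons in this stretch and Clec7a, which encodes Dectin-1, had 10. Clec4a2, which encodes the inhibitory receptor DCIR, had 6, Clec12a, an inhibitory receptor for uric acid crystals, had 7 and Clec4a3, a close relative of DCIR, had 11. A Tyr codon (TAT or TAC) with a Leu or Val codon 3 codons on was searched for in the first 50 codons in frame. It was found at codon 7 of Clec4a2 and of Clec12a, each with its partner at codon 10, and at codon 15 of Clec7a with its partner at codon 18. Clec4a1 also held it at codon 7 and Clec5a at codon 44, and Clec4n, Clec4d, Clec4e, Clec4a3 and Cd209a did not hold it. The same pattern was present in 16.9% of 9503 tested coding genes. A match is a description of these letters, not a signalling site.

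Total counts lay between 4484793 and 19386617 in 100Q, where replicate 3 was the deepest, and between 3675931 and 6755398 in 0Q. A count of 3 equalled 0.159 to 0.632 counts scaled to library size (CPM, with totals adjusted by TMM factors) in 100Q and 0.423 to 0.833 CPM in 0Q. Such floors cover counting error only, since no molecular identifiers are named in the labels. The dendritic cell label was checked against 10 markers, all of which were tested. H2-Aa, an MHC class II chain, had 580.3 ± 76.5 CPM in 100Q, against 577 ± 91.9 CPM in 0Q (SD over 3 libraries each), and Itgax (CD11c) had 140.2 ± 14.7 CPM in 100Q, against 98.6 ± 26.8 CPM in 0Q. The defining markers Flt3 and Zbtb46 were low, at 3.33 ± 2.11 and 2.46 ± 1.14 CPM in 100Q, against 1.12 ± 0.748 and 1.17 ± 0.64 CPM in 0Q. Some markers of other cells were abundant: S100a9 of neutrophils had 5385 ± 603 CPM in 100Q, against 5933 ± 254 CPM in 0Q, Prg2 of eosinophils had 1316 ± 204 and 1382 ± 133 CPM, and Cd68 of macrophages had 849.9 ± 153 and 911 ± 101 CPM. Each of these is the most abundant marker of its list, and some others of the same lists were low. Siglecf of eosinophils had 3.22 ± 2.66 CPM in 100Q, against 3.87 ± 0.671 CPM in 0Q. Mertk of macrophages had 8.63 ± 2.1 CPM in 100Q, against 7.11 ± 1.36 CPM in 0Q. The summed 10 neutrophil markers ranged over 14138 to 17219 CPM in 100Q, against 16950 to 19869 CPM in 0Q, while the 10 lymphocyte markers together had 5.51 to 16.9 CPM in 100Q, against 11.1 to 18.3 CPM in 0Q, with Cd3e alone of them at 0 in all 6 libraries. Of the 10 neutrophil markers 9 lay below 0 (100Q over 0Q, log2) with a median of -0.23, and 3 of the 10 (Ly6g, Camp and Ngp) had an unadjusted p under 0.05, beside 2.93% of all tested genes. Of 9 tested markers of mast cells, basophils and eosinophils 8 lay below 0 (median -0.29), as did 3 of 3 of lymphocytes (median -0.51). Of the dendritic cell markers 7 of 10 lay above 0 (median 0.25), with Itgax at an unadjusted p of 0.0174 by edgeR across all genes, and of the monocyte and macrophage markers 4 of 8 (median 0.01). None of these passed the adjusted threshold, and their part in the receptors' values was not tested. Receptor RNA in these bulk cultures therefore cannot be given to a cell type, and fewer cells of a type and less RNA per cell cannot be told apart.

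Levels of different genes were compared as TPM, which is computed here from the counts over the length of all annotated exons of a gene. Clec4n dominated the set. This receptor for fungal mannans had 9694, 7252 and 8685 TPM in 100Q replicates 1, 2 and 3, against 9145, 7530 and 8362 TPM in 0Q replicates 1, 2 and 3. It ranked 14 among all genes by mean TPM, and between 12 and 22 in single libraries. Its share of the summed TPM of the 10 receptors was 80.3% ± 1.1 in 100Q, against 81% ± 1.32 in 0Q (SD over 3 libraries each). The next receptor, Clec7a, had a mean TPM over the 6 libraries that was 10.8-fold below that of Clec4n. That fold depends on the length used. With canonical transcript lengths the ratio of Clec4n to Clec7a was 3.08 ± 0.129 in 100Q, against 3.56 ± 0.502 in 0Q.

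**Figure D1:**
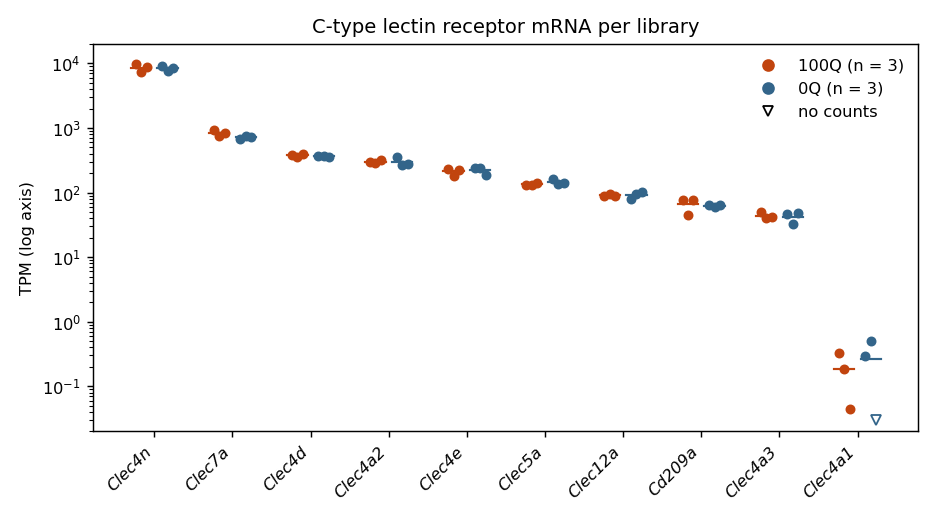
Transcript level of the 10 receptors in TPM on a log axis, with 1 point per library, 100Q left of 0Q for each gene, lines for the group means and a triangle for a library with no counts. Clec4n lies above all others in all 6 libraries, from 7252 to 9694 TPM, and Clec4a1 has 0.506 TPM or less.

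Below Clec4n and Clec7a, mean TPM over the 6 libraries fell in the order Clec4d (371), Clec4a2 (301), Clec4e (218), Clec5a (141), Clec12a (91.5), Cd209a (64.5), Clec4a3 (43.1) and Clec4a1 (0.227). Each gene was above the next in 6 of 6 libraries. The ranges of neighbours overlapped only for Cd209a and Clec4a3. The order depends on gene length. With the length of the canonical transcript, Clec4e moved above Clec4a2 and Clec12a above Clec5a, and with that of the longest transcript Clec12a moved above Clec5a. The canonical transcript of Clec7a is only 707 bases long, and with it Clec7a had 1910 ± 199 TPM in 100Q, against 1619 ± 75.4 TPM in 0Q, and Clec4n 5894 ± 824 and 5737 ± 542 TPM.

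Among the receptors that signal through FcR gamma, Clec4n (ENSMUSG00000023349, GRCm39 chr6:123206802-123223980, plus strand) had 5979, 4332 and 5555 CPM in 100Q replicates 1, 2 and 3, against 6185, 4478 and 5420 CPM in 0Q replicates 1, 2 and 3. The 2 groups overlapped, with replicate 2 lowest in both, and the log2 fold change of 100Q over 0Q was -0.02 (SE 0.13, 95% interval -0.29 to 0.25). Clec4d (ENSMUSG00000030144, chr6:123239070-123252230, plus strand), which pairs with Mincle, had 268, 242 and 284 CPM in 100Q, against 279, 246 and 264 CPM in 0Q. Its values varied least of the 9 tested receptors, with a coefficient of variation of 6.4% over the 6 libraries, and its log2 fold change was 0.01 (SE 0.13, 95% interval -0.26 to 0.28). Clec4e (ENSMUSG00000030142, chr6:123258748-123266829, minus strand) encodes Mincle, a receptor for mycobacterial cord factor, and had 506, 382 and 496 CPM in 100Q, against 570.3, 497 and 421 CPM in 0Q. These also overlapped (log2 fold change -0.10, SE 0.14, 95% interval -0.40 to 0.19). The TPM ratio of Clec4d to Clec4e was 1.79 ± 0.161 in 100Q, against 1.66 ± 0.243 in 0Q (SD over 3 libraries each). With canonical transcript lengths it was 1.1 ± 0.0985 and 1.02 ± 0.149, so which of the pair is more abundant depends on the length used.

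Clec7a (ENSMUSG00000079293, chr6:129438554-129449742, minus strand), the beta-glucan receptor Dectin-1 that signals by its own tail motif, had 1079, 842 and 1003 CPM in 100Q replicates 1, 2 and 3, against 860.1, 823 and 885 CPM in 0Q replicates 1, 2 and 3. In 100Q, replicates 1 and 3 stood above all 0Q libraries and replicate 2 lay within their range. The mean was 975 ± 121 CPM in 100Q, against 856 ± 31.1 CPM in 0Q (SD over 3 libraries each), and edgeR gave 0.19 as log2 fold change (SE 0.11, with -0.05 to 0.43 as 95% interval, unadjusted p = 0.115, adjusted p = 0.999). This was the smallest unadjusted p of the receptors and ranked 862 of 10554 tested genes. With 1 library left out in turn, its log2 fold change lay between 0.10 (without 100Q replicate 1, unadjusted p = 0.444) and 0.28 (without 100Q replicate 2, unadjusted p = 0.0343), and the adjusted p was 1 in both of these edgeR fits. Clec5a (ENSMUSG00000029915, chr6:40551234-40562773, minus strand), which signals through DAP12, was on the other side of 0. It had 251, 242 and 287 CPM in 100Q, against 345, 258 and 289 CPM in 0Q, and its log2 fold change was -0.19 (SE 0.14, 95% interval -0.48 to 0.10, unadjusted p = 0.181 by edgeR across all genes). In the annotation 44 bases of it overlap Or9a4, an olfactory receptor gene on the opposite strand.

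Of the inhibitory receptors, Clec4a2 (ENSMUSG00000030148, chr6:123083387-123120958, plus strand) had 383, 355 and 420.1 CPM in 100Q, against 491, 325 and 375 CPM in 0Q. Its highest and lowest values were both in 0Q, and the log2 fold change was -0.04 (SE 0.15, 95% interval -0.34 to 0.27). Of the 50-base stretches of its transcript 8.75% also occur in transcripts of other genes, most often Clec4a4, so its level is less certain. The deposited count of Clec4a2 was not whole in any of the 6 libraries. The same was so in 3 libraries each for Clec4n, Clec7a and Clec12a and in 1 for Clec5a. Clec12a (ENSMUSG00000053063, chr6:129319654-129342266, plus strand) had 228, 238 and 232 CPM in 100Q, within the 225, 232 and 275 CPM of 0Q (log2 fold change -0.07, SE 0.13, 95% interval -0.34 to 0.20).

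Clec4a3 (ENSMUSG00000043832, chr6:122929380-122948807, plus strand) had 65.3 ± 8.25 CPM in 100Q, against 65.3 ± 16.1 CPM in 0Q (SD over 3 libraries each), for a log2 fold change of 0.00 (SE 0.21). Clec4a2 was 6.93 ± 0.771 times as abundant as Clec4a3 in 100Q, against 7.19 ± 1.18 times in 0Q by TPM. Cd209a (ENSMUSG00000031494, chr8:3793397-3798984, minus strand), a mouse relative of human DC-SIGN, had 53.4, 30.3 and 54.5 CPM in 100Q, against 48.5, 39.5 and 45.8 CPM in 0Q. It varied most of the 9, by 20.2% over the 6 libraries, with 100Q holding both the highest and the lowest value (log2 fold change 0.06, SE 0.25). Clec4a1 (ENSMUSG00000049037, chr6:122896122-122911578, plus strand), which encodes another DCIR relative, had 2, 1 and 1 counts in 100Q, against 2, 4 and 0 counts in 0Q. At this depth its level could not be compared, and it did not pass the filter on low counts.

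None of the 9 tested receptors passed the test of 100Q against 0Q, edgeR's quasi-likelihood test with Benjamini-Hochberg adjustment over all 10554 tested genes, at a threshold of 0.05. That is 0 of the 9, against 0% of all tested genes, and the smallest adjusted p of any gene was 0.999. DESeq2 and limma-voom also called 0 genes. At an unadjusted p under 0.05, 0 of the 9 passed, against 2.93% of all tested genes (309 genes, 187 higher and 122 lower in 100Q). The groups did not overlap for 0 of the 9, against 8.24% of all tested genes. Of the 9, 4 were above 0 and 5 below, with a median log2 fold change of -0.02, beside 0.00 over all tested genes. Clec4n, Clec4d, Clec4a2 and Clec4a3 were so close to 0 that their sign changed with the scaling or the tool. For all 9 the 95% interval lay within 1.5-fold in both directions. The same holds for 89.5% of the 1328 tested genes at 100 CPM or more, a level that Clec4a3 and Cd209a did not reach. The intervals of Cd209a (-0.46 to 0.57) and Clec4a3 (-0.45 to 0.46) were the widest of the 9. Each interval covers 1 gene alone, and the 9 are not joint. Taken gene by gene, changes larger than 1.5-fold lie outside the intervals, and smaller ones could not be told from the spread between replicates.

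**Figure D2:**
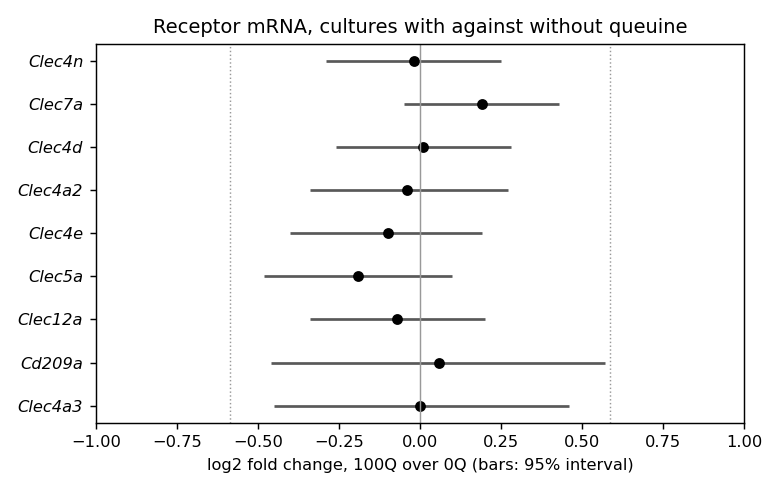
Log2 fold change of 100Q over 0Q for the 9 tested receptors, with points for the estimate and bars for the 95% interval, a line at 0 and dotted lines at 1.5-fold in both directions. The intervals of all 9 hold 0, and Clec7a (0.19) and Clec5a (-0.19) have the most extreme estimates.

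Most of the receptors were low in the same libraries. As a median over the 9, their deviation from the mean of the 6 libraries on the log2(CPM + 1) scale was 0.09, -0.17 and 0.07 in 100Q replicates 1, 2 and 3, against 0.21, -0.15 and 0.04 in 0Q replicates 1, 2 and 3. Of the 9, 1 was above its mean in 100Q replicate 2 and 1 in 0Q replicate 2, against 6 to 8 in the other 4 libraries. The highest value lay in 0Q replicate 1 for 5 receptors, and the lowest in 100Q replicate 2 for 5 and in 0Q replicate 2 for 3. Over 6250 genes the rank correlation of a gene's deviation with its transcript length was 0.16 in 100Q replicate 2, 0.17 in 0Q replicate 2 and -0.24 in 0Q replicate 1, against -0.05 to 0.09 in the other libraries. This is a description across genes that share libraries, and its part in the receptors' deviations was not tested. With the length trend removed from each library, the median log2 fold change of the receptors was 0.02, beside -0.02 without that step.

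**Figure D3:**
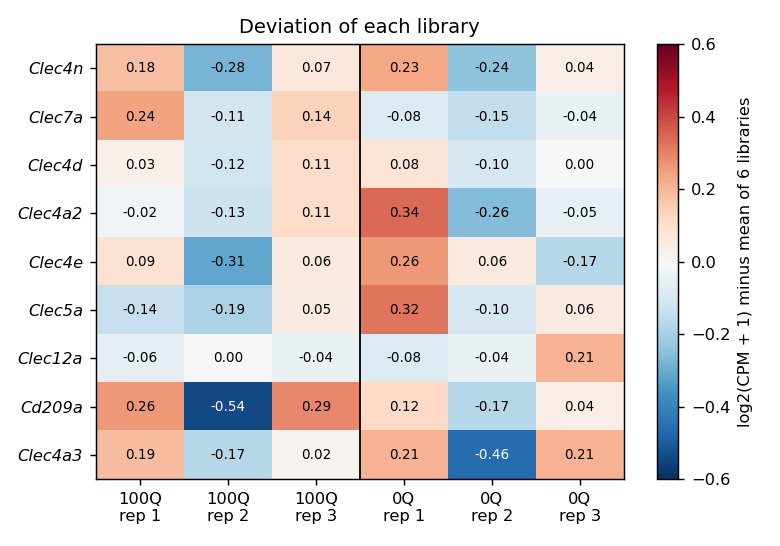
Deviation of each of the 9 tested receptors from its own mean over the 6 libraries (log2 of CPM plus 1), as a coloured grid of receptors by library with the value in each cell and 100Q libraries left of 0Q libraries. The medians over the receptors are lowest in 100Q replicate 2 (-0.17) and 0Q replicate 2 (-0.15) and highest in 0Q replicate 1 (0.21).

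Most of the receptors lie in groups of related genes on chromosome 6. The stretch from Clec4a1 to Clec4e holds 13 annotated genes, 9 of them protein-coding, and that from Clec12a to Clec7a holds 7, 6 of them protein-coding. In the first, the neighbours Clec4b1 and Clec4b2 had 81.7 ± 22.6 and 35.8 ± 2.1 TPM in 100Q, against 55.9 ± 24.5 and 41.1 ± 17.2 TPM in 0Q (SD over 3 libraries each), so levels of the coding genes in this group ran from 0.227 TPM for Clec4a1 to 8445 TPM for Clec4n as means over the 6 libraries. Clec4a4 had 2, 2 and 13 counts in 100Q, against 0, 0 and 0 counts in 0Q. It did not pass the filter on low counts, and its reads may be shared with Clec4a2, so no fold is given. In the second, all coding genes between Clec12a and Clec7a were low, with Clec9a, a receptor for damaged cells, at 7.12 ± 4.35 TPM in 100Q, against 5.93 ± 1.63 TPM in 0Q, and Clec1b at 4.91 ± 0.797 and 5.26 ± 1.41 TPM. Clec12b was at 0 in the 100Q libraries and at 0.138 ± 0.239 TPM in 0Q, and Clec1a at 0.381 ± 0.254 and 0.306 ± 0.0622 TPM.

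**Figure D4:**
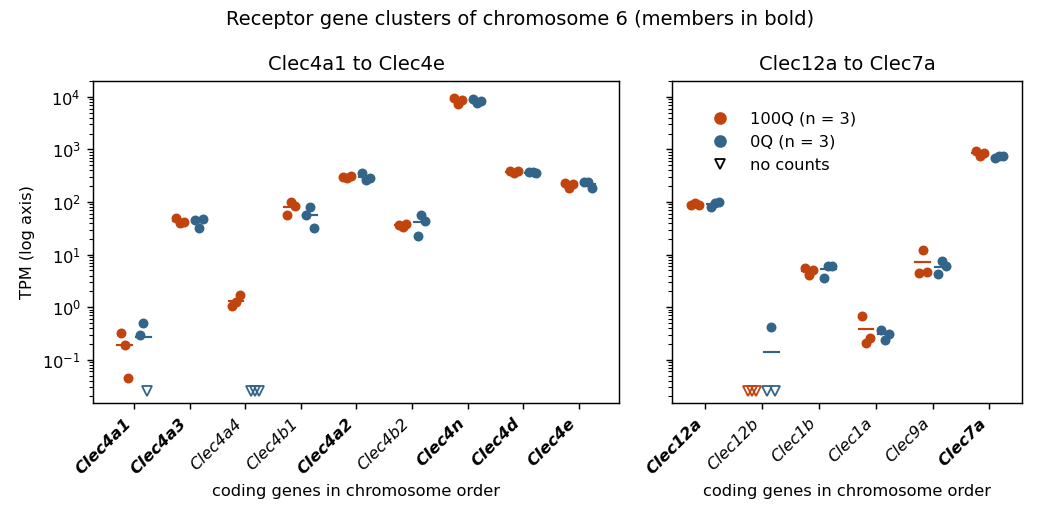
Level of the protein-coding genes of both chromosome 6 groups in gene order, in TPM on a log axis, with 1 point per library, 100Q left of 0Q, lines for the group means, triangles for libraries with no counts and the receptors' names in bold. Clec4n has the highest level in the first group and Clec7a in the second.

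The partner chains were, like Clec4n, among the abundant mRNAs. Fcer1g had 3038 ± 72.9 CPM in 100Q, against 3070 ± 189 CPM in 0Q (SD over 3 libraries each; log2 fold change -0.02, SE 0.10), and Tyrobp 1915 ± 94.3 and 2092 ± 183 CPM (-0.13, SE 0.10). The TPM ratio of Clec4n to Fcer1g was 1.64, 1.18 and 1.45 in 100Q and 1.61, 1.28 and 1.38 in 0Q. In all 6 libraries the receptor mRNA therefore exceeded, by TPM, that of the chain it signals through. The proteins were not measured in these libraries. Of the 13 adaptors and proximal kinases, 12 were tested, 5 above 0 and 7 below, with a median of -0.01. Syk had 44.6 ± 9.16 CPM in 100Q, against 44.7 ± 19.6 CPM in 0Q. Plcg2, the phospholipase below Syk, had the smallest p of this list (24.8 ± 4.56 CPM in 100Q, 39.9 ± 21.5 CPM in 0Q, log2 fold change -0.67, SE 0.34, unadjusted p = 0.0662). Its log2 fold change was -1.02 without 0Q replicate 1 and -0.24 without 0Q replicate 3.

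Of the 13 genes of the Card9 complex and its transcription factors, 12 were tested, 9 above 0 and 3 below, with a median of 0.11. Card9 itself was the untested gene, as it did not pass the filter on low counts. The median was 0.22 without 100Q replicate 1, 0.00 without 0Q replicate 1, 0.40 without 0Q replicate 2 and 0.01 without 0Q replicate 3. Bcl10, a partner of Card9, had 59.7 ± 5.31 CPM in 100Q, against 43.6 ± 10.9 CPM in 0Q (log2 fold change 0.45, SE 0.22, unadjusted p = 0.06), and the transcription factor Nfkb1 had 51.7 ± 2.64 and 48.2 ± 17.4 CPM (0.09, SE 0.24). Of the 8 inhibitory phosphatases and regulators, 7 were above 0 and 1 below, with a median of 0.23, which was 0.10 without 100Q replicate 2, 0.09 without 0Q replicate 1 and 0.35 without 0Q replicate 2. Ptpn6 had 88.9 ± 11.5 CPM in 100Q, against 83.1 ± 11.4 CPM in 0Q (0.09, SE 0.18), and Ubash3b, which restrains Syk signalling, had 45.5 ± 5.29 and 39.7 ± 14 CPM (0.20, SE 0.27). Dok1, an adaptor that dampens kinase signalling, did not overlap between the groups, at 4.56, 9.27 and 3.07 CPM in 100Q, against 2.08, 2.96 and 2.22 CPM in 0Q (1.18, SE 0.66, unadjusted p = 0.092). The groups did not overlap for 8.24% of all tested genes, and the Dok1 log2 fold change was 0.63 without 100Q replicate 2 and 0.67 by limma-voom. Each of these lists had 0 genes past the threshold, by edgeR, and 0 at an unadjusted p under 0.05.

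Of the 15 genes that this signalling is known to induce, 9 were tested, 7 above 0 and 2 below, with a median of 0.06, beside 0.00 over all tested genes. With each library left out in turn that median lay between 0.04 (without 100Q replicate 2) and 0.27 (without 0Q replicate 3), with 0.24 when 0Q replicate 2 was left out. Ccl4, a chemokine, had 442, 418 and 450.4 CPM in 100Q, against 399, 312 and 338 CPM in 0Q. All 3 values with queuine were above all 3 without it (log2 fold change 0.32, SE 0.12, 95% interval 0.06 to 0.58, unadjusted p = 0.0192, adjusted p = 0.999), and groups did not overlap for 8.24% of all tested genes. Ccl3, a related chemokine, had 317 ± 34 CPM in 100Q, against 311 ± 25.4 CPM in 0Q (0.03, SE 0.13).

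Of 37 other C-type lectin genes, 20 were tested, 11 above 0 and 9 below (median 0.05), and 0 passed at an unadjusted p under 0.05. Another 9 were at 0 in all 6 libraries. Cd302 was the most abundant of them by CPM, with 323 ± 28.4 CPM in 100Q, against 313 ± 7.72 CPM in 0Q. Mgl2, a galactose-type lectin, had 240.2 ± 61.3 and 226 ± 44.2 CPM, and Mrc1, the mannose receptor, had 195 ± 21.4 and 199 ± 41 CPM. Cd207, the langerin gene, did not overlap between groups, as was so for 8.24% of all tested genes, with 11.1 ± 2.36 CPM in 100Q, against 16.9 ± 3.07 CPM in 0Q (-0.60, SE 0.35, unadjusted p = 0.108).

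**Figure D5:**
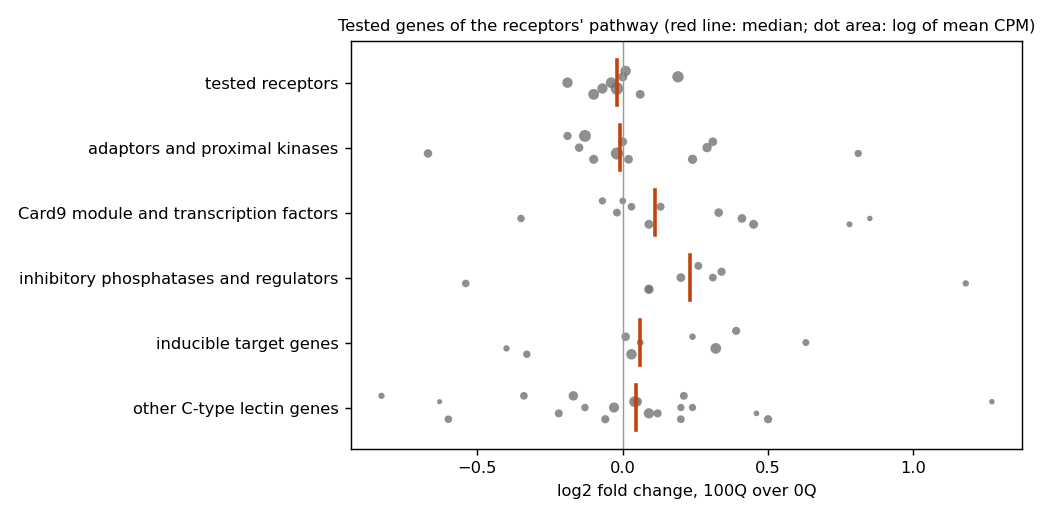
Log2 fold change of 100Q over 0Q for each tested gene of the receptors, their signalling and target lists and other C-type lectin genes, with a line at the median of each list and dots that grow with mean CPM. The receptors lie between -0.19 and 0.19, with a median of -0.02.

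The codons that queuosine tRNAs read made up 14.3% to 19% of the codons of the 10 receptors, with a median of 15.8%, beside a median of 14.1% (quartiles 12.3% and 15.9%) over 8702 tested coding genes with at least 20 such codons. Of them 41.2% (Cd209a) to 65.1% (Clec12a) ended in T, with a median of 52.3% over the 10 receptors and 44% (quartiles 35% and 53.7%) over the tested genes. Clec4n and Clec7a each had 32 such codons, of which 59.4% ended in T, and their log2 fold changes were -0.02 and 0.19. The libraries measured mRNA, and translation of these codons was not measured in them.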

How the data were processed

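Values are expected counts as deposited by the authors, in 1 table with a column per library and no normalization; per the submitters' processing notes, FastQC, STAR and RSEM were used on mm39 (GRCm39). Not given in the sources used here were versions, annotation release and strandedness. RSEM splits ambiguous reads between genes, so 5.51% to 10.5% of values in a library were not whole, and near-identical genes are uncertain. That share is over all 57132 genes, of which 35735 were at 0 in all libraries, so it is higher among detected genes. All 6 columns were matched by name to library titles, and 0 columns were unused. Names and positions came from GENCODE mouse release 39, where 502 of 57132 identifiers had no match.

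Expected counts were rounded and tested with edgeR 4.0.16 in R 4.3.3 (filterByExpr, TMM, robust glmQLFit, glmQLFTest, 100Q over 0Q) on all 10554 genes that passed the filter, with Benjamini-Hochberg adjustment at 0.05. CPM used TMM-scaled totals, and TPM was computed from counts over exon-union length. Alternatives were DESeq2 1.42.0, limma-voom (limma 3.58.1), other scalings and filters, unrounded counts, a thinned library, leaving out each library and a block for the replicate number. The edgeR step was tested on simulated data. An exact permutation test of 3 libraries against 3 cannot go below p = 0.1.

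The receptors and the gene lists were chosen with earlier results of these data known. All 10 receptors are named. From each pathway list the text names the 2 tested genes with the highest mean CPM and the one with the smallest p, from other C-type lectins the 4 most abundant, and of the cell markers the most abundant and those that check the label. Some genes that this rule names are not reported here. Syk, Ly6g, Camp, Ngp, Siglecf, Mertk and the genes of the closing observations were named after their values were seen. Protein identity was not analysed here.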

Additional observations from a re-analysis of the deposited data

How the results depend on the processing

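The direction of Clec7a and of Clec5a held under every alternative run, at 0.18 to 0.22 and -0.20 to -0.15 with all libraries and at 0.10 to 0.28 and -0.29 to -0.07 with 1 library left out. No receptor passed the threshold under any alternative, with adjusted p between 0.816 and 1. Clec7a had an unadjusted p of 0.022 with library totals alone and 0.0433 with the transcript length trend removed, which was added after the data were seen. Genes past the threshold numbered 0 to 2 with 1 library left out: Gvin2 and Gm46542 without 0Q replicate 1 and Gm2446 without 0Q replicate 2. Genes at an unadjusted p under 0.05 numbered 839 without a filter, 187 at 10 CPM or more, where fewer genes were tested, and 193 to 662 with 1 library left out; the receptors among them numbered 1 with library totals alone, 1 with the length trend removed and 0 to 1 with 1 library left out. Values near 0 changed sign. Clec4n was 0.01 by limma-voom, 0.02 with library totals and 0.05 without the length trend, Fcer1g 0.00, 0.02 and 0.06, and Prg2 0.00 without the trend. Clec4a2 was 0.01 by limma-voom and 0.01 with library totals; Clec4a3 was -0.01, Clec4d 0.00 and H2-Aa 0.00 by DESeq2 and by its size factors. With 1 library left out, log2 fold changes ranged from -0.14 to 0.10 for Clec4n, -0.04 to 0.06 for Clec4d, -0.21 to 0.01 for Clec4e, -0.17 to 0.15 for Clec4a2, -0.20 to 0.12 for Clec4a3, -0.12 to 0.02 for Clec12a and -0.09 to 0.27 for Cd209a. They ranged from -0.07 to 0.02 for Fcer1g, -0.10 to 0.42 for Nfkb1, 0.00 to 0.20 for Ptpn6, -0.07 to 0.39 for Ubash3b, -0.06 to 0.09 for Ccl3, -0.01 to 0.11 for Cd302, -0.07 to 0.27 for Mgl2, -0.13 to 0.15 for Mrc1, -0.11 to 0.13 for H2-Aa, -0.25 to 0.01 for Cd68 and -0.20 to 0.02 for Prg2. The median of the receptors ranged from -0.11 to 0.10, that of the Card9 list from 0.00 to 0.40 and that of the induced genes from 0.04 to 0.27. The cause of these changes was not tested. The share of Clec4n in the receptors' sum was 78% in 100Q and 78.7% in 0Q with longest transcripts, 66.6% and 68.3% with canonical ones (added after the data were seen) and 66.1% and 66.6% by CPM. Whether the replicate numbers pair the libraries could not be decided from so few libraries. Over 1328 genes, deviations of same-numbered libraries correlated at 0.12, 0.32 and -0.15. 100Q replicates 1 and 2 each correlated best with the 0Q library of the same number, and 100Q replicate 3 with 0Q replicate 1 (0.42). With the replicate block, 0 genes passed the threshold, 421 had an unadjusted p under 0.05 and 0 of the 9 receptors changed sign.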

Other observations

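Card9, the adaptor that links these receptors to the transcription factors of the NF-kappa-B family, was low, with 0.76, 0 and 1.96 CPM in 100Q, against 0.944, 2.68 and 0 CPM in 0Q, and it did not pass the filter. Among the genes that the pathway induces, Il10 and Il23a were at 0 in all 6 libraries, while Tnf had 35.7 ± 6.32 CPM in 100Q, against 35.7 ± 6.02 CPM in 0Q (SD over 3 libraries each) and Il1b had 10.6 ± 1.79 and 13.3 ± 1.63 CPM. Olr1, the receptor for oxidised lipoprotein, had 81 ± 7.12 CPM in 100Q, against 78.4 ± 14.2 CPM in 0Q, and Clec10a, a relative of Mgl2, had 23.6 ± 5.18 and 21.9 ± 3.7 CPM. These genes were picked after their values were seen.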
